A study of Mus musculus with 40 samples.

Results

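The deep-layer projection neuron genes described here are 10 genes that mark or specify the corticofugal neurons of cortical layers 5 and 6 and the subplate: Tbr1, Bcl11b, Fezf2, Sox5, Tle4, Ldb2, Zfpm2, Foxp2, Nfib and Hs3st4. They were chosen by name, matched through NCBI gene IDs, and all 10 of 10 were found among the 17940 genes listed at E14.5 and the 15449 listed at E18.5. All 10 carried an adjusted p at both stages, so none was lost to a filter on low counts. The study sequenced polyadenylated RNA from the forebrain of male mouse embryos at embryonic stages E14.5 and E18.5, from wild-type (WT) mice and from mice carrying a duplication of Chd8 (KI in the labels). There were 5 WT and 5 KI libraries at each stage, 20 in all, and the labels' protocol speaks of RNA from a male mouse without stating whether animals were pooled. How the added copy was inserted and the strain are not given in the sources used here. Whether littermates share a group is not stated in the labels, and the p-values measure the spread between these libraries.

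CHD8 is an ATP-dependent chromatin remodeler encoded by a high-confidence autism gene. In the developing cortex, radial glia give rise to deep-layer neurons first and to upper-layer neurons later. Layer 6 neurons project mostly to the thalamus and layer 5 neurons to the brainstem and spinal cord. Their identities are held apart by transcription factors that restrain each other: FEZF2, with BCL11B downstream of it, directs the subcerebral fate of layer 5, while TBR1 and SOX5 direct the layer 6 and subplate fates and restrain FEZF2 and BCL11B. At E14.5 cortical neurons are still being made, and E18.5 is close to birth.

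The authors deposited 1 table of results per stage, which sets KI against WT. Each gene has a mean normalized count over the libraries of the stage, a log2 fold change with its standard error (SE), a Wald statistic (the log2 fold change divided by its SE), a p and an adjusted p. A gene was called changed at an adjusted p under 0.05 over all genes tested, which were 13417 at E14.5 and 13601 at E18.5. Values per library were not analysed here, so the spread is given by the authors' SE and 95% intervals are the log2 fold change plus or minus 1.96 SE. For Chd8, the duplicated gene, the authors' deposited table has 0.64 (SE 0.031) at E14.5 and, for the later stage, 0.51 (SE 0.038), and its sign sets the reading that positive means higher in KI. The forebrain label was checked against markers of neighbouring regions: in the authors' deposited table, of 9 midbrain and hindbrain genes 4 were listed at E14.5, at a mean normalized count of no more than 3.24, and none carried an adjusted p. At E18.5, 1 of the 9 was listed, at a mean normalized count of 15.3 and without an adjusted p.

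Promoter windows of 3 members, chosen after the values were seen, are shown first. The members were below 0 together at E14.5, and an annotated start site of each can be set beside the others. An annotated start need not be the outermost start of its gene. The RefSeq table (GRCm38.p6, 250 bases before to 50 after each start) held 7 windows for 6 of the 10 genes: Tbr1, Bcl11b, Fezf2, Sox5, Hs3st4 and Tle4, the last with 2. Ldb2, Zfpm2, Foxp2 and Nfib had no entry. The windows were searched for CANNTG, the E-box read by proneural factors such as NEUROG2 and NEUROD, whose pattern is the same on both strands, and for GGTGTGA on both strands, a T-box core. Printed below 5′ to 3′ on the gene's own strand are those of Tbr1 (chr2:61804203-61804502, plus strand), the layer 6 selector, of Fezf2 (chr14:12345816-12346115, minus strand), the layer 5 selector, and of Tle4 (chr19:14598134-14598433, minus strand), the other member with an E-box. Capitals mark each CANNTG.
Tbr1: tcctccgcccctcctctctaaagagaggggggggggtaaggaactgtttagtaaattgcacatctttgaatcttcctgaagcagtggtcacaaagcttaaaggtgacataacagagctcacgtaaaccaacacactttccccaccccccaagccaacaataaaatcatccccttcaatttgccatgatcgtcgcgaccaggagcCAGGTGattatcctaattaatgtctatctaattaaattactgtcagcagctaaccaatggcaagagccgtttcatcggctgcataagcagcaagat
Fezf2: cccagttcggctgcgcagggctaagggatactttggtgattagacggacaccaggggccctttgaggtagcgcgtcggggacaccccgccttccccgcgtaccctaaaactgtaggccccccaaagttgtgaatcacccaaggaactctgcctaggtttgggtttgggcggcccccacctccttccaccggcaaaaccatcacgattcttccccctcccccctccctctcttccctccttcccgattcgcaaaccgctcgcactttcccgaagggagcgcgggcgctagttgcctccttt
Tle4: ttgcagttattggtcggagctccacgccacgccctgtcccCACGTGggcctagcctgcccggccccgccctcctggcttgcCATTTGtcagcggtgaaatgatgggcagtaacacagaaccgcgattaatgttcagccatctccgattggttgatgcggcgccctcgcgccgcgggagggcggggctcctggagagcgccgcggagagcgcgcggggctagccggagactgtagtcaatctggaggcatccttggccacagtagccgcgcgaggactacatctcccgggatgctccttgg

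The Tbr1 window held 1 E-box (CAGGTG) and the Tle4 window 2 (CACGTG and CATTTG), while the Fezf2 window held none. In all, 2 of the 7 member windows (28.6%) held a CANNTG, against 63.2% of the 13427 windows of genes tested at E14.5 and 72.3% of all 32851 windows. None of the 7 held GGTGTGA, which was present in 3.21% of the windows of genes tested. Base composition differed widely among the windows of the members: the share of G and C was 39.7% for Sox5, 43.0% for Bcl11b, 46.0% for Tbr1, 61.3% for Fezf2, 65.0% and 73.0% for the windows of Tle4 and 79.3% for Hs3st4, around a median of 61.0% for genes tested. Some windows lay inside the gene and not at its outer end. The Sox5 window (143947057 to 143947356, minus strand) lay far within a span that ends at 144782287. The Tbr1 window (plus strand) began at 61804203, within a span that begins at 61802863. No motif searched was present in all 3 printed windows, although Tbr1 and Tle4 both held a CANNTG. These are matches of letters in short windows and say nothing about binding.

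At E14.5 all 10 deep-layer genes were below 0 in KI, and 1 of them, Ldb2, passed the test over all genes. Across the authors' deposited table the 10 log2 fold changes ran from −0.25 for Ldb2 to −0.03 for Bcl11b, with a median of −0.11, which is −7.6% relative to WT. Among all genes tested 50.2% were below 0, and their median was −0.0005. The call of 1 in 10 stands against 0.470% of all genes called lower, and no member was called higher (0.738% of all genes). At an unadjusted p under 0.05, 8 of the 10 were lower, against 5.28% of all genes; the 2 outside were Bcl11b and Tle4. With the Wald statistics rescaled to an empirical null, 5 of the 10 remained, against 2.81% of all genes. These members were chosen with the lower values of deep-layer markers at E14.5 in these data already known, so the direction is a description of the 10 genes and not independent evidence. In bulk forebrain RNA, fewer deep-layer neurons and less RNA of these genes per neuron cannot be told apart.

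**Figure D1:**
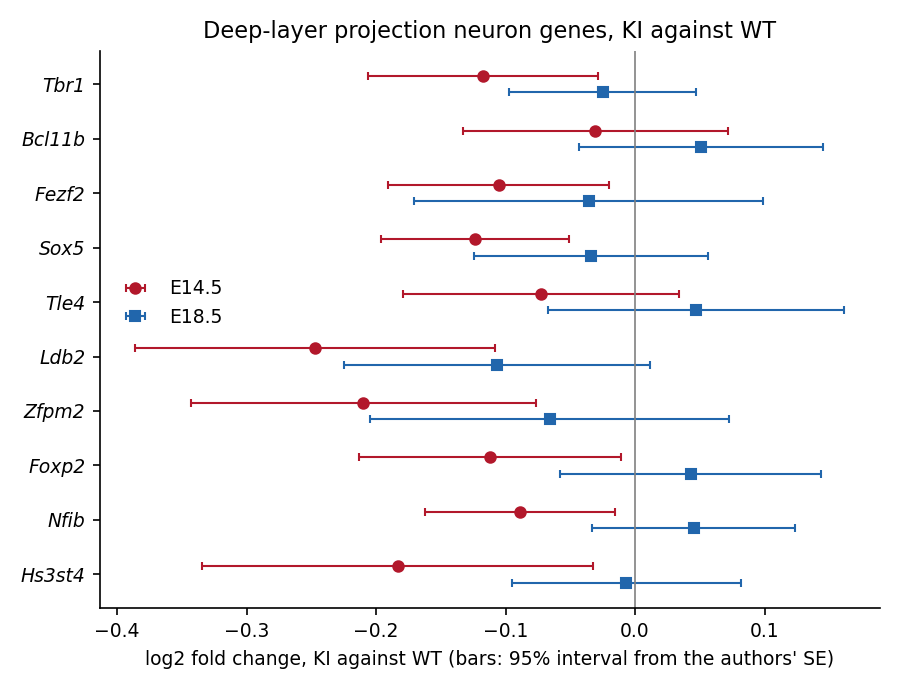
Log2 fold change of KI against WT for each of the 10 genes (points) at E14.5 (circles) and E18.5 (squares), with 95% intervals from the authors' SE. All 10 circles lie below 0 and 8 of their intervals exclude 0, while all 10 intervals of the squares include 0.

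Ldb2 encodes a LIM-domain binding cofactor found in layer 5 corticospinal neurons and spans chr5:44435955-44799759. It fell by 15.7% in KI at E14.5, with a 95% interval of −23.5% to −7.2%; the authors' deposited table gives its log2 fold change as −0.25 with an SE of 0.071 and an adjusted p of 0.0438. Ldb2 had the 58th lowest Wald statistic among the 13417 genes tested. The call lies close to the threshold: adjusting over all 17937 genes with a p gave an adjusted p of 0.0585, the Benjamini-Yekutieli adjustment 0.441, and an empirical null, which rescales the Wald statistics by their observed spread, 0.372.

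The layer 6 and subplate regulators came next. Sox5, a SoxD transcription factor that times the emergence of corticofugal subtypes (chr6:143828425-144782287), stands in the authors' deposited table at −0.12 (SE 0.037, adjusted p = 0.0605), just outside the threshold, with the 85th lowest Wald statistic. Zfpm2, a GATA cofactor also known as Fog2 and expressed in corticothalamic neurons (chr15:40655042-41104592), stands in the authors' deposited table at −0.21 (SE 0.068, adjusted p = 0.0910). Tbr1, the T-box selector of layer 6 (chr2:61802863-61814114), has −0.12 in the authors' deposited table with a narrower SE of 0.045 (adjusted p = 0.209), an interval of −13.3% to −1.9%. Zfpm2 lay further from 0 than Sox5 but had a wider SE, and so the higher adjusted p of the pair.

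Foxp2, a forkhead factor of layer 6 that is also strong in striatal neurons (chr6:14901349-15441977), is listed in the authors' deposited table at −0.11 (SE 0.051, adjusted p = 0.349). Tle4, a Groucho-family corepressor of corticothalamic neurons (chr19:14448072-14598183), is listed in the authors' deposited table at −0.07 (SE 0.054, adjusted p = 0.656), with an interval of −11.7% to 2.4%. Hs3st4, which encodes a heparan sulfate 3-O-sulfotransferase and marks layer 6 (chr7:123982366-124398989), is listed in the authors' deposited table at −0.18 (SE 0.077, adjusted p = 0.273) and had the widest SE of the 10. Each of these has an interval that allows both a value near 0 and a fall of over 10%.

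Like every member other than Ldb2, the layer 5 selectors did not pass the test. The authors' deposited table lists Fezf2, the zinc finger selector itself (chr14:12338992-12346803), at −0.11 (SE 0.043, adjusted p = 0.263). The Fezf2 interval, −12.4% to −1.4%, was wholly negative and close to the −13.3% to −1.9% of Tbr1. The authors' deposited table lists Bcl11b, the zinc finger factor downstream of Fezf2 (chr12:107910403-108004145), at −0.03 (SE 0.052, adjusted p = 0.888). The interval for Bcl11b, −8.8% to 5.1%, leaves room for a value as low as the −7.8% of Tbr1. Bcl11b is also abundant in striatal projection neurons, and the bulk values do not separate the sources. Nfib, a nuclear factor I gene active in progenitors, glia and deep-layer neurons (chr4:82290173-82506751), has −0.09 (SE 0.037, adjusted p = 0.276) by the authors' deposited table.

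**Figure D2:**
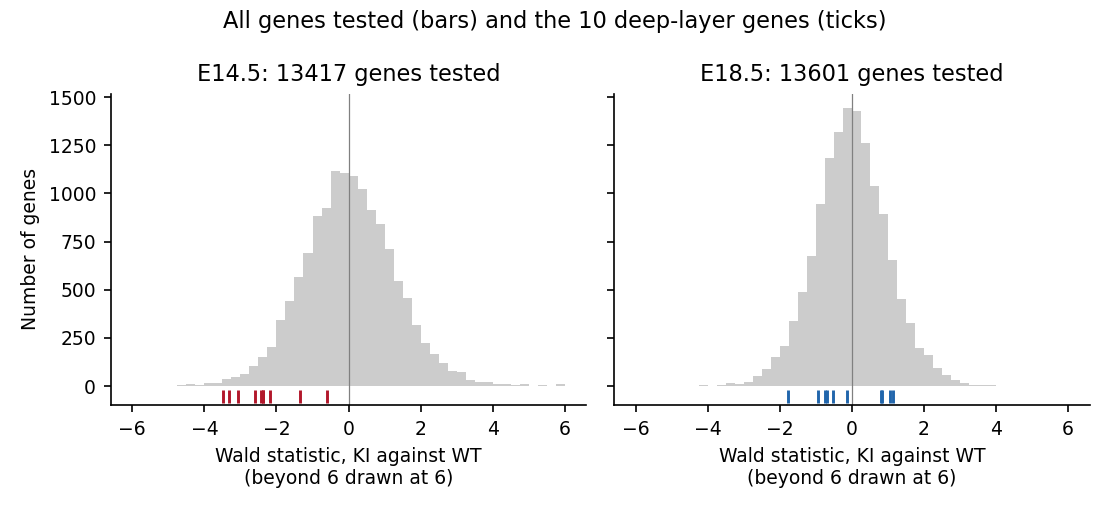
Number of genes (bars) by Wald statistic of KI against WT at E14.5 (left, 13417 genes) and E18.5 (right, 13601 genes), with the 10 deep-layer genes as ticks under the axis. The ticks run from −3.485 to −0.591 at E14.5 and lie on both sides of 0, from −1.768 to 1.131, at E18.5.

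At E18.5 no deep-layer gene was called in either direction, against 0.0221% of all genes called lower and 0.0441% called higher. The authors' deposited table has 6 of the 10 below 0, against 51.2% of all genes, and 4 (Bcl11b, Tle4, Foxp2 and Nfib) above; the median was −0.02. None had an unadjusted p under 0.05, a level that 2.82% of all genes reached in the lower direction. Ldb2 was again the lowest; the authors' deposited table gives it −0.11 (SE 0.060, unadjusted p = 0.0771, adjusted p = 0.938), with an interval of −14.4% to 0.8%. The other 9 had an adjusted p of 0.9999.

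The remaining values at E18.5 lay close to 0. Below 0, the authors' deposited table lists Zfpm2 at −0.07 (SE 0.071), Fezf2 at −0.04 (SE 0.069), Sox5 at −0.03 (SE 0.046), Tbr1 at −0.03 (SE 0.037) and Hs3st4 at −0.01 (SE 0.045). Above 0, the authors' deposited table lists Bcl11b at 0.05 (SE 0.048), Tle4 at 0.05 (SE 0.058), Nfib at 0.05 (SE 0.040) and Foxp2 at 0.04 (SE 0.051). For Tbr1 the interval was −6.5% to 3.3%, so a fall at E18.5 as large as its estimate of −7.8% at E14.5 lies outside it. For Ldb2 the E18.5 interval ends at −14.4%, short of its E14.5 estimate of −15.7%. The intervals of the stages overlap for both genes, so the estimates alone do not set the stages apart. The SEs at E18.5 (0.037 to 0.071) were like those at E14.5 (0.037 to 0.077).

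Whether the KI effect itself differed between stages was tested on the difference of the 2 log2 fold changes, which come from separate libraries. It contains the E14.5 values, and the members were chosen with the lower values of deep-layer markers at that stage known, so its sign and counts over the members are a description and support nothing. The difference, E18.5 minus E14.5, was positive for all 10 members, with a median of 0.13, while 49.6% of the 13106 genes tested at both stages were positive. None of the 10 passed over all genes (0.00% of all genes did), and each had an adjusted p of 0.999. For Nfib the difference was 0.13 (SE 0.055, 95% interval 0.03 to 0.24, unadjusted p = 0.0145). For Foxp2 it was 0.15 (SE 0.073, unadjusted p = 0.0333) and for Hs3st4 0.18 (SE 0.089, unadjusted p = 0.0476). These were the 3 of 10 with an unadjusted p under 0.05, beside 2.33% of all genes in that direction, and nothing is read from that count. For Ldb2, the called gene, the difference was 0.14 with an interval of −0.04 to 0.32, so its effect is not shown to differ between stages.

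**Figure D3:**
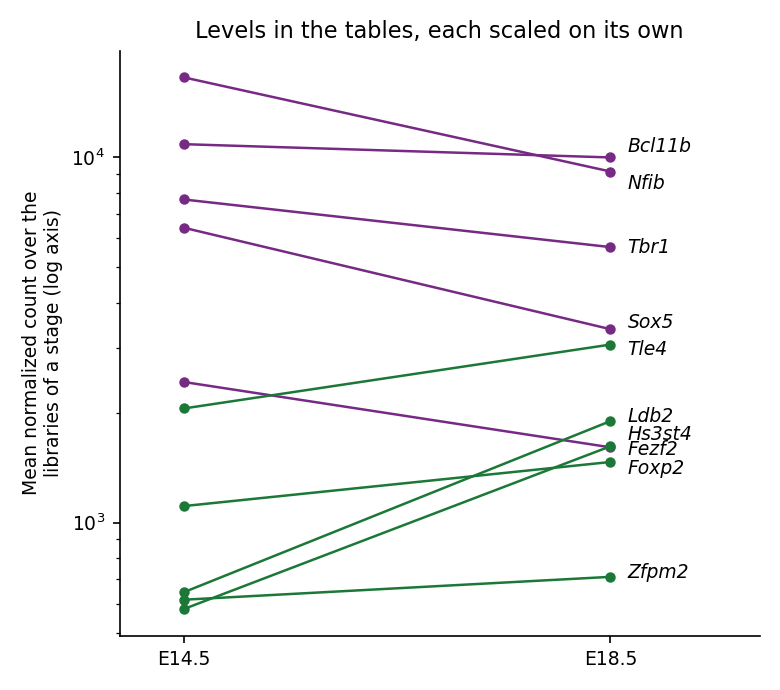
Mean normalized count of each of the 10 genes in the E14.5 and E18.5 tables (log axis), WT and KI libraries together, green where the E18.5 value is higher and purple where it is lower. Ldb2 and Hs3st4 start at 645 and 580 and end at 1896 and 1618.

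The genes also differed in how their level moved between the tables, each of which was scaled on its own, so the values are set side by side without a test. Mean normalized counts in the authors' deposited tables went from 645 to 1896 for Ldb2 and from 580 to 1618 for Hs3st4, ratios of 2.94 and 2.79. Tle4 (2053 to 3071), Foxp2 (1110 to 1466) and Zfpm2 (615 to 711) were also higher at E18.5 in those tables. Other transcription factor genes were lower there: Sox5 went from 6415 to 3384, Nfib from 16548 to 9142, Fezf2 from 2427 to 1607 and Tbr1 from 7665 to 5677. Bcl11b was nearly level, at 10860 and 9988. The members at the lowest counts at E14.5 (Hs3st4, Zfpm2 and Ldb2) were the 3 with the lowest log2 fold changes and the widest SEs at that stage.

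The wider deep-layer programme was read from 2 further lists. Of 12 other layer 6 and subplate genes, 10 were tested at E14.5 and 7 were below 0, with a median of −0.09. None was called, where 0.470% of all genes were called lower and 0.738% higher. At an unadjusted p under 0.05 there were 2, both lower, against 5.28% of all genes in that direction. The authors' deposited table has −0.20 (SE 0.074 and adjusted p = 0.194) for Syt6, a synaptotagmin of corticothalamic neurons, and −0.14 (SE 0.091, adjusted p = 0.591) for Ntsr1, the neurotensin receptor that marks layer 6. For Nxph3, a neurexophilin of deep layers and subplate, the authors' deposited table has −0.24 (SE 0.094, adjusted p = 0.223). At E18.5 none of the 11 tested was called, against 0.0221% of all genes called lower and 0.0441% higher. Of the 11, 5 were below 0 and the median was 0.00. There 1 was lower at an unadjusted p under 0.05, against 2.82% of all genes. As for the 10 members, the median of this list was lower at E14.5 than at E18.5. This list was also chosen with earlier results of these data known, so the likeness is a description only.

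Other layer 5 genes lay on both sides of 0. Of 14 listed, 13 were tested at E14.5, where 0.470% of all genes were called lower and 0.738% higher. At an unadjusted p under 0.05, 3 were lower and 2 higher, against 5.28% and 6.26% of all genes. In all 8 were below 0, and the median was −0.05. The 1 called gene went the other way: Igfbp4, an insulin-like growth factor binding protein that marks layer 5 but is also made by other cells, rose; the authors' deposited table has 0.32 for it (SE 0.054, adjusted p = 8.24e-06). For Crym, a thyroid hormone binding protein of corticospinal neurons, the authors' deposited table gives −0.25 with a wide SE of 0.266 (adjusted p = 0.785). It gives 0.21 (SE 0.079, adjusted p = 0.201) for Pcp4, a calmodulin regulator, and −0.17 (SE 0.091, adjusted p = 0.443) for S100a10. At E18.5 none of 13 was called, where 0.0221% of all genes were called lower and 0.0441% higher. There 6 were below 0, with a median of 0.02. At an unadjusted p under 0.05, 1 was lower and 1 higher, against 2.82% and 3.13% of all genes.

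Paralogs of the members lay more often above 0 than below at E14.5. Of 20 paralogs 19 were tested and none was called, where 0.470% of all genes were called lower and 0.738% higher. At an unadjusted p under 0.05, 2 were lower and 1 higher, against 5.28% and 6.26% of all genes. There were 7 below 0, and the median was 0.02. The authors' deposited table has 0.08 (SE 0.043 and adjusted p = 0.466) for Ldb1, the widely expressed relative of Ldb2. For the relatives of Nfib the authors' deposited table has 0.03 (SE 0.057 and adjusted p = 0.915) for Nfia and −0.17 (SE 0.052, adjusted p = 0.0568) for Nfix; these 3 were chosen after their values were seen. Nfix was thus further from 0 than Nfib. Eomes, the T-box gene of intermediate progenitors that produce these neurons, has 0.02 (SE 0.032, adjusted p = 0.878) by the authors' deposited table, while its relative Tbr1, which follows it in the lineage, was at −0.12. No difference between paralogs was tested, since their values come from the same libraries. At E18.5 the paralogs lay more often below 0, 12 of 19, with a median of −0.01. None was called there, against 0.0221% of all genes called lower and 0.0441% higher.

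**Figure D4:**
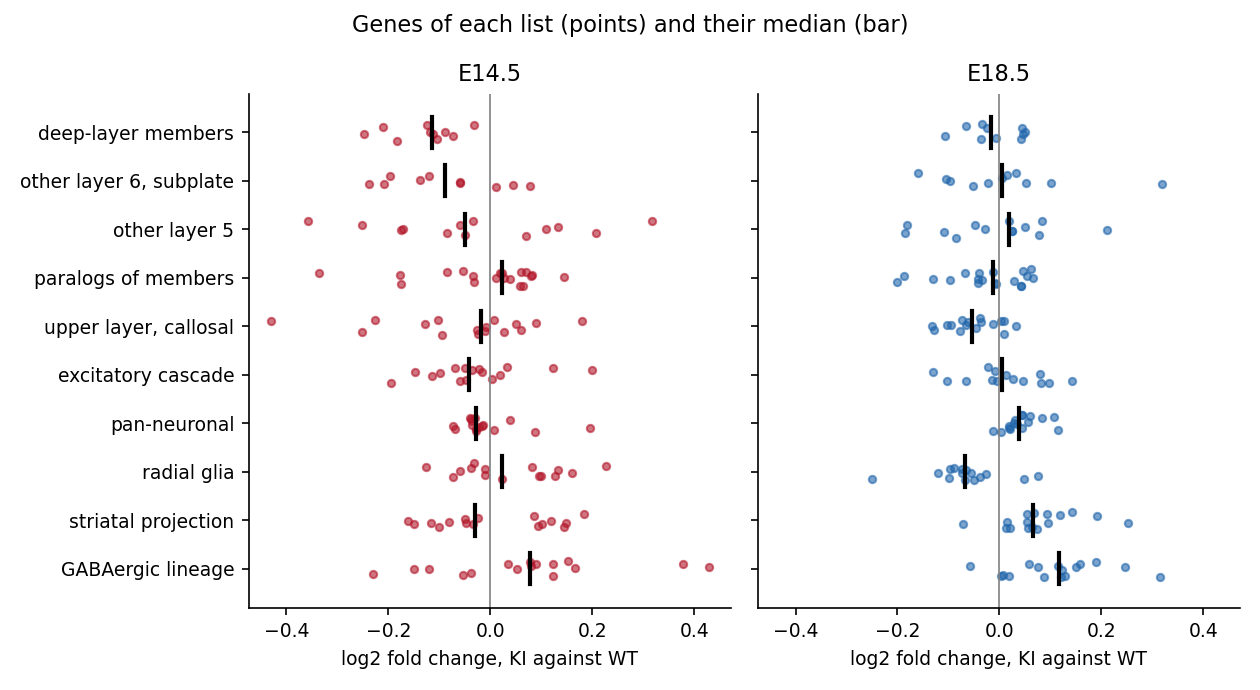
Log2 fold change of KI against WT of each tested gene (points) in 10 lists, with the list median (bar), at E14.5 (left) and E18.5 (right). At E14.5 all 10 deep-layer members lie below 0 with a median of −0.11, and the other lists of cortical neurons have medians between −0.09 and −0.02. This order is a description only, since lower deep-layer values at E14.5 were known when the members were chosen.

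Other lists of excitatory neurons had medians nearer to 0 than that of the members. Since the members were chosen with lower deep-layer values at E14.5 known, this order is a description only. In the excitatory neurogenesis cascade 11 of 16 were below 0 at E14.5 (median −0.04), and Neurod6, a basic helix-loop-helix factor of postmitotic cortical neurons, was the 1 called; it fell, and the authors' deposited table has −0.20 (SE 0.046, adjusted p = 0.00438). For the early genes Neurog1, Neurog2 and Insm1 the authors' deposited table gives 0.20, 0.03 and −0.06 (SE 0.112, 0.039 and 0.048). Of 16 upper-layer and callosal genes 10 were below 0 (median −0.02). There Mef2c, a MADS-box factor, fell and Cux1, a homeobox factor, rose; the authors' deposited table has −0.23 (SE 0.047, adjusted p = 0.000687) and 0.18 (SE 0.043, adjusted p = 0.00628). The calls of Neurod6 and Cux1 were lost with the empirical null (adjusted p of 0.104 and 0.125), and that of Cux1 also with Benjamini-Yekutieli (0.0633). Among 16 pan-neuronal genes 12 were below 0, with a median of −0.03, and none was called (1 higher at an unadjusted p under 0.05). At that level the cascade had 2 lower and 1 higher, and the upper-layer list 4 lower and 1 higher. Over all genes 5.28% were lower and 6.26% higher at that level, and 0.470% were called lower and 0.738% higher.

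Markers of other cell types were read beside the members at E14.5, where 0.470% of all genes were called lower and 0.738% higher. At an unadjusted p under 0.05 the shares of all genes were 5.28% lower and 6.26% higher. In the GABAergic lineage 11 of 16 genes were above 0 (median 0.08), and Dlx1, a ventral homeobox gene, rose; the authors' deposited table has 0.17 (SE 0.047, adjusted p = 0.0369). Of 15 radial glia genes 8 were above 0 (median 0.02), and Ttyh1, a chloride channel gene, was called higher at 0.13 (SE 0.037, adjusted p = 0.0491) by the authors' deposited table. All 5 tested erythroid genes were above 0 (median 0.50) and the 2 called higher, the globin genes Hba-x and Hbb-y, have 0.59 (SE 0.149) and 0.50 (SE 0.068) in the authors' deposited table. Of 7 tested genes of meninges and fibroblasts 6 were above 0 (median 0.28) with none called (1 lower and 2 higher at an unadjusted p under 0.05). Striatal projection neurons also express Bcl11b and Foxp2; of 16 other genes of these neurons 9 were below 0 (median −0.03), with none called (1 higher at an unadjusted p under 0.05). Of 10 Cajal-Retzius cell genes 5 were below 0, and Ndnf, a secreted protein gene, fell; the authors' deposited table has −0.49 (SE 0.137, adjusted p = 0.0315). Endothelial genes were below 0 in 7 of 8 (median −0.03) and diencephalon genes above 0 in 4 of 6 (median 0.11). The calls of Dlx1, Ttyh1, Ndnf and Hba-x were lost with the empirical null (adjusted p of 0.333, 0.388, 0.308 and 0.178) and with Benjamini-Yekutieli (0.372, 0.495, 0.318 and 0.119), and that of Ttyh1 also with all genes with a p (0.0652). The part of these cell types in the values of the deep-layer genes was not tested, and their summed level in WT and in KI was not analysed here.

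Several of the lists above were also read at E18.5, where 0.0221% of all genes were called lower and 0.0441% higher. Striatal genes were above 0 in 15 of 16 (median 0.07), GABAergic genes in 15 of 16 (median 0.12) and pan-neuronal genes in 15 of 16 (median 0.04), where 48.8% of all genes were above 0; none of them was called (2, 5 and 2 higher at an unadjusted p under 0.05, a level that 3.13% of all genes reached in that direction). Radial glia genes were below 0 in 13 of 15 (median −0.07) with none called. At an unadjusted p under 0.05, 2 of them were lower, against 2.82% of all genes. Upper-layer genes were below 0 in 12 of 16 (median −0.05) with none called (1 lower at an unadjusted p under 0.05). The members above 0 at this stage were Bcl11b, Tle4, Foxp2 and Nfib, and the interval of each included 0. The part of striatal neurons in these values was not tested.

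A feature that the choice of members did not use is the length of the genes. In GRCm38.p6 the span from first to last annotated base was 954 kb for Sox5, 541 kb for Foxp2, 450 kb for Zfpm2, 417 kb for Hs3st4, 364 kb for Ldb2, 217 kb for Nfib and 150 kb for Tle4, against a median of 24.9 kb over genes tested at E14.5 with a matched symbol. Bcl11b (93.7 kb), Tbr1 (11.3 kb) and Fezf2 (7.81 kb) were shorter. Of all genes spanning 400 kb or more, 63.7% of 314 were below 0 at E14.5, with a median of −0.04, against 47.1% of 3221 genes under 10 kb. The authors' deposited table puts the 4 members of the long class between −0.21 and −0.11, all beyond that median. The short members Tbr1 and Fezf2 were at −0.12 and −0.11, in classes whose medians were −0.0015 and 0.0078. The members were chosen with the lower values of deep-layer markers at E14.5 known. Their place below the class medians is therefore a description and supports nothing about an effect beyond that of length. At E18.5 the long class leaned the other way, with 43.5% of 324 genes below 0 and a median of 0.01. No other gene that was tested overlapped the span of a member.

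**Figure D5:**
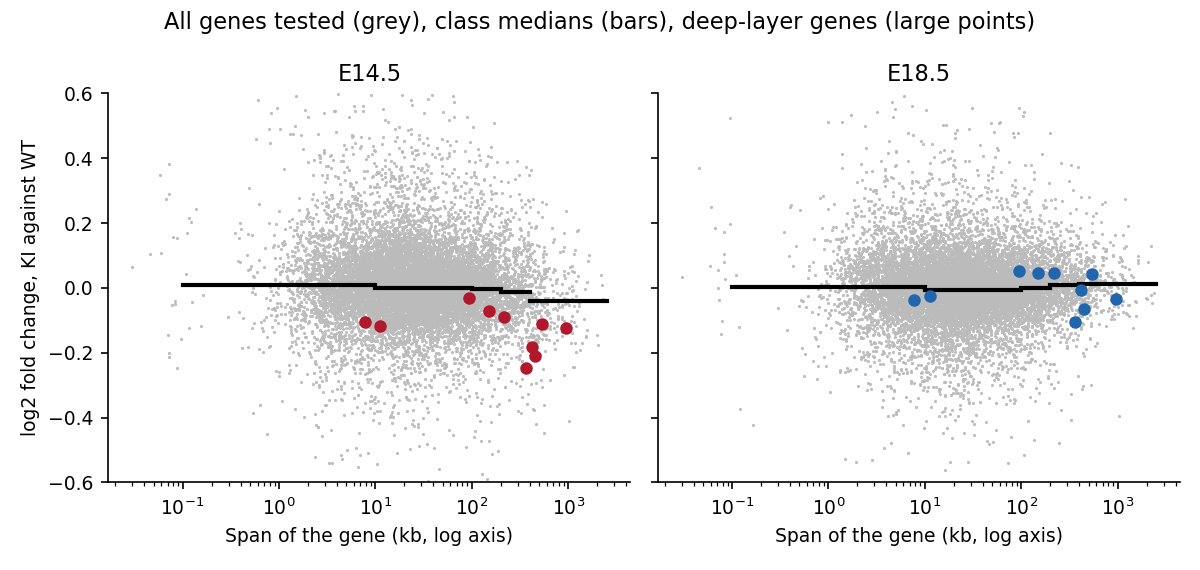
Log2 fold change of KI against WT by the span of the gene (log axis) for genes tested with a matched symbol at E14.5 (left) and E18.5 (right); black bars are medians of 5 span classes and large points the 10 deep-layer genes. At E14.5 all 10 lie below the median of their class, a description only, since lower deep-layer values at E14.5 were known when they were chosen. Beyond the plotted limit of 0.6 are 38 genes (E14.5) and 15 genes (E18.5).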

How the data were processed

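RNA-seq was made from forebrain of male embryos, 5 WT and 5 KI libraries per stage. The submitters' processing notes name Trimmomatic 0.39, HISAT2 2.1.0, DESeq2 1.26.0 and featureCounts 2.0.0, and the build mm10; strand handling in counting is not given in the sources used here. Per the file headers the authors deposited, for each gene, a mean normalized count (used as a signal averaged over a stage's libraries), a log2 fold change, its SE and Wald statistic (scores), and raw and adjusted p-values. The tables used here had 0 columns per library, so depth per library is unknown. The count model planned for values per library was therefore not run, and the authors' test was used.

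IDs were matched to RefSeq (GRCm38.p6): 95.8% at E14.5 and 97.5% at E18.5. The deposited adjusted p equalled a Benjamini-Hochberg adjustment over genes that have one, within 6.9e-05. The stage difference was a two-sided z test, adjusted over 13106 genes, checked on simulated data (Python 3.11.15, scipy 1.17.1). The 5 alternatives run are an empirical null, Benjamini-Yekutieli, all genes with a p, a mean count of at least 100, and centring on the median of all genes. Named genes are the members, called genes of the other lists and up to 3 listed first, apart from Ldb1, Nfia and Nfix, chosen after their values were seen. The members and the lists were chosen with earlier results of these data known. CHD8 ChIP-seq and ATAC-seq samples were not analysed here.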

Additional observations from a re-analysis of the deposited data

How the results depend on the processing

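The count of deep-layer genes called lower at E14.5 went from 1 to 0 with the empirical null, with the Benjamini-Yekutieli adjustment and with all genes with a p. The adjusted p of Ldb2 was then 0.372, 0.441 and 0.0585. Among the called genes of the other lists, the calls of Cux1, Ttyh1, Dlx1, Ndnf and Hba-x ended with the empirical null and with Benjamini-Yekutieli, that of Neurod6 with the empirical null, and that of Ttyh1 also with all genes with a p. The call of Ldb2 held with a mean count of at least 100 and with centring. With the empirical null, which divides the Wald statistics by a scale of 1.216, 5 of the 10 members in place of 8 had an unadjusted p under 0.05 and were lower, against 2.81% of all genes. Over all genes at E14.5 that setting gave 31 calls and Benjamini-Yekutieli 56, in place of 162. At E18.5 the calls over all genes were 19 with the empirical null, 4 with Benjamini-Yekutieli and 14 with a mean count of at least 100, in place of 9. No member was called at E18.5 or for the stage difference under these 5 settings, and 593 of all genes had an unadjusted p under 0.05 for that difference. No log2 fold change of a member changed sign on centring. No paired analysis was possible because the tables used here hold no values per library; for the same reason leaving out each replicate and another normalization were not run. Precision is limited by SEs of 0.037 to 0.077.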

Other observations

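Long genes outside the deep-layer set also lay below 0 more often than short ones at E14.5. There, 63.2% of the 310 other genes spanning 400 kb or more were below 0, and 11.9% had an unadjusted p under 0.05 and were lower in KI, against 4.72% of the other genes under 10 kb. In the higher direction the shares were 3.23% and 7.30%. Without the members the median of the long class was −0.0381 in place of −0.0393. At E18.5 the shares in the lower direction were 1.25% and 2.80%. Genes are not independent replicates, and no test was made of this pattern.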
